A study of Homo sapiens with 2 samples.

Results

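The miR-29 family was represented by 3 of the 947 small RNA loci counted in MCF10A cells, miR-29a-5p and miR-29b-1-5p on chromosome 7 and miR-29b-2-5p on chromosome 1. They were taken as every locus named miR-29a, miR-29b or miR-29c with any arm or copy suffix, and miR-29c was not analysed here. These cells, an immortalised breast epithelial line that does not form tumours, were left untreated (3 libraries) or given the plant lactone withaferin A at 2 µM for 24 h (3 libraries). The labels do not state whether the libraries of a group came from separate cultures. The p-values below therefore cover the spread between libraries, which may be technical. The protocol names 2 library kits, 1 for each group if its order is followed, and the effects of kit and of treatment cannot be told apart.

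MicroRNAs are cut from a hairpin precursor that gives a 5p and a 3p arm, and the arm loaded into Argonaute represses messenger RNAs that match its seed, bases 2 to 8. In the miR-29 family the 3p arm is the one usually loaded. Its known targets include fibrillar and basement membrane collagens, elastin and the DNA methyltransferases DNMT3A and DNMT3B, and in fibroblasts its loss accompanies fibrosis. The family is transcribed from a pair of clusters. One holds miR-29a and miR-29b-1, the other miR-29b-2 and miR-29c. MYC, NF-kB and TGF-beta signalling are known repressors of these clusters.

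The mature arms of the 3 hairpins are shown because the seed joins the members and because the arms decide which loci can share reads. The sequences are RefSeq's on GRCh38.p14, with the seed in capitals.
miR-29a-3p: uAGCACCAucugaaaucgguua
miR-29b-3p: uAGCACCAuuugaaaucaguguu
miR-29a-5p: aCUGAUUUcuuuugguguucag
miR-29b-1-5p: gCUGGUUUcauauggugguuuaga
miR-29b-2-5p: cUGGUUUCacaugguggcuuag

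The seed AGCACCA was shared by both 3p arms, and in the RefSeq table of 2370 mature names it belonged to 3, miR-29a-3p, miR-29b-3p and miR-29c-3p. Each 5p arm had a seed found under no other name. miR-29a-3p and miR-29b-3p were identical at 18 of 22 aligned positions. Counted from the 5′ end of miR-29a-3p, the substitutions were C10U, G18A, U21G and A22U, all outside the seed. The 2 hairpins of miR-29b gave the same 3p arm (23 of 23 positions). Their 5p arms matched at 20 of 22 positions, with U11C and U19C counted from the 5′ end of miR-29b-1-5p.

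The hairpins are shown with the 3p arm in capitals, so that the stretch common to both miR-29b precursors can be seen.
MIR29A: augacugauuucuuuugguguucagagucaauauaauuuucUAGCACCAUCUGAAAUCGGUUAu
MIR29B1: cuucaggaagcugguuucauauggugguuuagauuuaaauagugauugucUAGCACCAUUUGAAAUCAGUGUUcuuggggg
MIR29B2: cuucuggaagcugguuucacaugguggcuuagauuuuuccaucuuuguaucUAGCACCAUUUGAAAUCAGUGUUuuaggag

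MIR29A lies on the minus strand at chr7:130876747-130876810 and MIR29B1 at chr7:130877459-130877539, 648 bases apart. In GENCODE 29, on the same GRCh38 coordinates, MIR29B1 lies wholly in exon 4 of the long non-coding RNA LINC-PINT (transcript LINC-PINT-202), and MIR29A overlaps the last 2 bases of that exon. Both also lie in introns of transcripts of the long non-coding RNA AC016831.6, and in an intron of LINC00513 on the opposite strand. MIR29B2 lies on the minus strand at chr1:207802443-207802523, wholly in exon 5 of the non-coding host gene MIR29B2CHG (transcript MIR29B2CHG-203).

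The libraries of the 2 groups differed greatly in depth. Untreated libraries held 1855838 to 2615684 counts over 801 to 841 loci, and withaferin A libraries held 340 to 430 counts over 26 to 33 loci, 1188 counts in all. Levels are given in CPM, counts scaled to a library total of 1000000. For a locus with no count among the 1188, a share of up to 0.253% is allowed, that of 3 counts. This level over the group, 2525 CPM, is called the floor. Intervals and floors cover counting error only and take each count as a separate read. The 2 copies of let-7a-5p held 232 and 223 of the 1188 counts, which may be largely the same reads. If so, the separate reads were fewer than 1188 and the floor would be higher. That floor was not computed. In untreated cells basal epithelial marker miRNAs (miR-205, miR-203a, miR-200c, miR-141, miR-221, miR-222 and miR-31, all 7 listed) summed to 9.13% to 9.47% of counts. Stromal markers (4 of 5 listed) summed to 0.00548% to 0.00652% and blood markers (5 of 6) to 0.0145% to 0.0281%. After withaferin A the basal list summed to 29.1% to 37.7%, with miR-203a, miR-200c, miR-141 and miR-222 at 0 counts, and the stromal and blood lists had 0 counts. Of the 399 counts of the basal list, 395 were miR-205-5p, so its sum there was nearly that of 1 marker.

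Of the miR-29 loci counted in untreated cells, miR-29a-5p held most counts, and miR-29c was not analysed. The locus hsa-miR-29a-5p had 16608, 10091 and 11712 counts in untreated libraries 1, 2 and 3, or 6460, 3858 and 6311 CPM. Library 2 was the low one, and the highest library was 1.67 times the lowest. The mean was 5543 CPM ± 1461 (SD, n = 3), which placed miR-29a-5p at rank 29 of 947 loci. Its neighbours in that order were miR-222-5p (6119 CPM ± 1868, SD, n = 3) above and miR-191-5p (5135 CPM ± 136) below. Both lay within 1 SD of miR-29a-5p, so the order among the 3 was not resolved by these libraries.

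The locus hsa-miR-29b-2-5p, on chromosome 1, had 1200, 664 and 1220 counts in the same libraries, or 467, 254 and 657 CPM. Its mean was 459 CPM ± 202 (SD, n = 3), at rank 105. The locus miR-29b-1-5p, on chromosome 7, had exactly the same counts as miR-29b-2-5p in each of the 6 libraries. The pair was therefore 1 measurement listed at 2 places, and the family held 2 separate measurements. miR-29b was again lowest in library 2, where it stood at 0.553 of its own mean, against 0.696 for miR-29a-5p. Library 2 was also the lowest of the 3 for 161 of the 303 loci that passed the filter on low counts (53.1%).

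**Figure D1:**
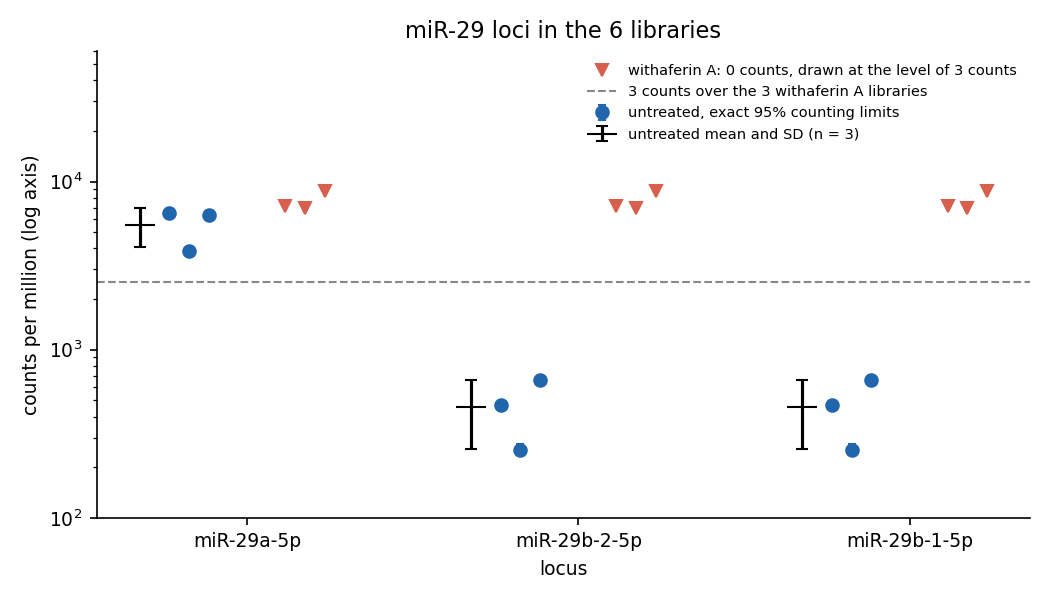
Level of the 3 miR-29 loci in each library, in CPM on a log axis. Blue circles are untreated libraries 1 to 3 with exact 95% counting limits, mostly smaller than the symbol, and black bars are their mean and SD. Orange triangles stand for the withaferin A libraries, which had 0 counts, drawn at the level 3 counts would have there. The dashed line is the floor over all 3 withaferin A libraries, 2525 CPM. The miR-29a-5p circles lie above that line and below every triangle, and the miR-29b circles lie below both.

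The equal counts at both miR-29b loci bear on what the locus names stand for. A read of miR-29b-3p matches both hairpins over the whole arm, whereas the 5p arms that the loci are named for differ. The same was seen elsewhere in the table. Of 7 pairs of hairpins listed under 5p names that share their 3p arm and differ in their 5p arm (50 or more counts in every untreated library), 7 had equal counts in all 6 libraries. Besides miR-29b these were miR-19b, miR-24, miR-92a, miR-103a, miR-128 and the pair miR-365a and miR-365b. Of 7 pairs that share the 5p arm and differ in the 3p arm, among them let-7a, miR-16 and miR-26a, 0 had equal counts. Their largest difference in an untreated library ran from 0.0301% to 12.3%. The 12.3% was that of miR-181b, and the next largest was 3.34%, of miR-125b. Counts that are nearly equal may also be largely the same reads. Which arm was counted at miR-29a-5p, which has no such copy, is not given in the sources used here. The same holds for the other loci listed under 5p names below, so a known role given there is that of the miRNA and not of a stated arm.

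The comparison of the clusters rests on miR-29a and leaves out miR-29c, the other member of the chromosome 1 cluster. Summed over each chromosome, the chromosome 7 loci had 14.8, 16.2 and 10.6 times the counts of the chromosome 1 locus in untreated libraries 1, 2 and 3, a mean ratio of 13.9 ± 2.92 (SD, n = 3). The same miR-29b counts enter both sums, so chromosome 7 could not come out lower, and its being higher in 3 of 3 libraries is no finding. miR-29a-5p alone had 12.9 ± 2.92 times the counts of the chromosome 1 locus (SD, n = 3). Because the miR-29b counts were the same at both clusters, that excess came wholly from miR-29a-5p, and miR-29b gave no information on which cluster its reads came from. With miR-29b counted once, miR-29a made up 92.6% ± 1.74 of the miR-29a and miR-29b counts together (n = 3). The miR-29b share of those counts was 6.74% (exact 95% limits 6.37 to 7.12) in library 1, 6.17% (5.73 to 6.65) in library 2 and 9.43% (8.94 to 9.95) in library 3. The limits of libraries 1 and 2 overlapped, and library 3 lay above both by more than counting error. No scaling of libraries alters these shares, since both loci were read in the same library.

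After withaferin A no miR-29 count was seen. In these bulk libraries a loss of cells that hold a miRNA and less of it per cell cannot be told apart. miR-29a-5p, miR-29b-1-5p and miR-29b-2-5p each had 0 of 418, 0 of 430 and 0 of 340 counts in withaferin A libraries 1, 2 and 3. At the untreated mean share, miR-29a-5p would have had 2.32, 2.38 and 1.88 counts in these libraries and 6.58 in their sum. For miR-29b the number expected in the sum was 0.546. A count of 0 in a single withaferin A library allows 6977 to 8824 CPM, above the level of miR-29a-5p in all 3 untreated libraries, so no single library could show a fall. Summed, with each count taken as a separate read, the 0 counts set miR-29a-5p at least 2.19-fold lower than the untreated mean. The bound was 1.53-fold against the lowest untreated library and 2.56-fold against the highest. Counting reads shared between loci once would change these folds, and that was not computed. The mean of miR-29b lay below the floor, so no fold can be given for it, and a fall of miR-29b was not detectable at this depth.

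**Figure D2:**
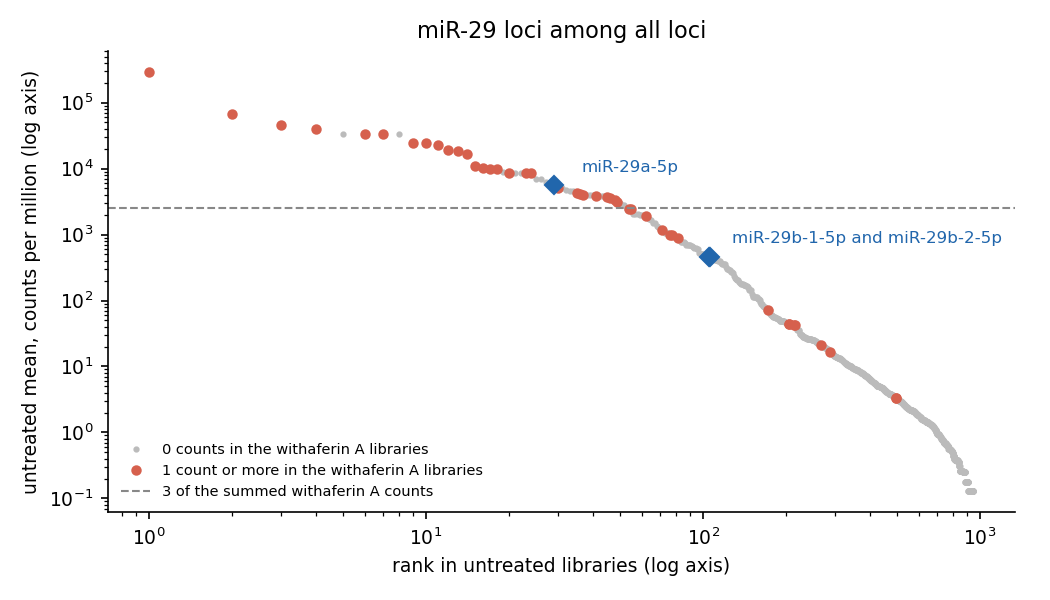
Untreated mean level of each locus (CPM, log axis) against its rank (log axis). Orange circles are loci with at least 1 count in the withaferin A libraries, grey points are loci with none, blue diamonds are the miR-29 loci, and the dashed line is the floor of 2525 CPM. miR-29a-5p, at rank 29, lies above the floor among loci with and without a count after withaferin A, and both miR-29b loci, at rank 105, lie below it.

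Across the 303 loci tested with edgeR's quasi-likelihood test, 51 were called lower after withaferin A (16.8% of loci tested, Benjamini-Hochberg adjusted p under 0.05) and 2 higher (0.66%). The same test was run on 1 simulated set with the depths of these libraries. Its changes were of 1 fixed size in both directions, with the same spread at each locus, which these data need not share. In it the test recovered few of the changed loci and called unchanged loci about as often. A call made here therefore carries little weight on its own. All 3 miR-29 loci passed the filter. miR-29a-5p was called lower (edgeR adjusted p = 0.0172), and miR-29b-1-5p and miR-29b-2-5p were not (edgeR adjusted p = 0.519 each). Counted as separate measurements, 1 of 2 was called. Above the floor in untreated cells, where miR-29a-5p lay, there were 52 loci, of which 42 were called lower (80.8%) and 24 had 0 counts after withaferin A. The median log2 ratio of shares over those 52 loci, with loci at 0 counts set to the floor, was −1.01, and that of miR-29a-5p, set to the floor, was −1.13. For a locus at 0 counts this ratio follows from its untreated level alone and does not give the size of its fall. A call of lower at miR-29a-5p was thus shared with most loci above the floor. edgeR's fitted log2 fold change of miR-29a-5p was −15.66 ± 2.88 (SE); with 0 counts in a group it depends on the prior count edgeR adds and is no bound.

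The call depended on how libraries were scaled. With library totals in place of TMM scaling (edgeR's trimmed mean of M values), miR-29a-5p did not pass (edgeR adjusted p = 0.0855), and 11 of 303 loci were called lower (3.63%) and 6 higher (1.98%). It did not pass without withaferin A library 3 either (edgeR adjusted p = 0.0788, with 5.94% of loci called lower), whose TMM factor of 3.32 stood against 0.767 and 1.21 in the other withaferin A libraries. After withaferin A 4 loci, miR-205-5p, let-7a-5p at its 2 copies and let-7c-5p, held 71.5% to 84.4% of a library's counts, against 12.9% to 15.5% in untreated libraries. Outside those 4 loci the withaferin A libraries held 241 counts, of which miR-29a-5p would have had 1.56 at its untreated share of 0.646% ± 0.165 (n = 3). Among 241 counts a count of 0 allows up to 1.24%, so as a share of those counts a fall of miR-29a-5p was not detectable. With those 4 loci left out of the table and library totals in place of TMM, both changes together, edgeR gave miR-29a-5p an adjusted p of 0.941, and 1 of 299 loci was called lower (0.334%). With the 4 loci left out and TMM kept, miR-29a-5p was called lower (edgeR adjusted p = 0.0324), as were 29 of 299 loci (9.7%).

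The choice of reference within a library showed the same dependence. miR-29a-5p had 6.27 to 9.19 counts per 100 counts of the basal epithelial marker miR-205-5p in untreated libraries. After withaferin A it had 0 against 395 counts of miR-205-5p, at most 0.759 per 100. That is at least 10.6-fold lower than the untreated mean ratio of 8.05. The share of miR-205-5p itself was higher after withaferin A (log2 ratio of shares 2.29). The 10.6-fold is thus a bound on the ratio of the 2 loci and not on miR-29a-5p alone. Against miR-21-5p, the most abundant untreated miRNA, miR-29a-5p stood at 1.43 to 2.18 per 100 in untreated libraries. The 29 counts of miR-21-5p after withaferin A allow up to 10.3 per 100, so no change in that ratio could be seen.

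**Figure D3:**
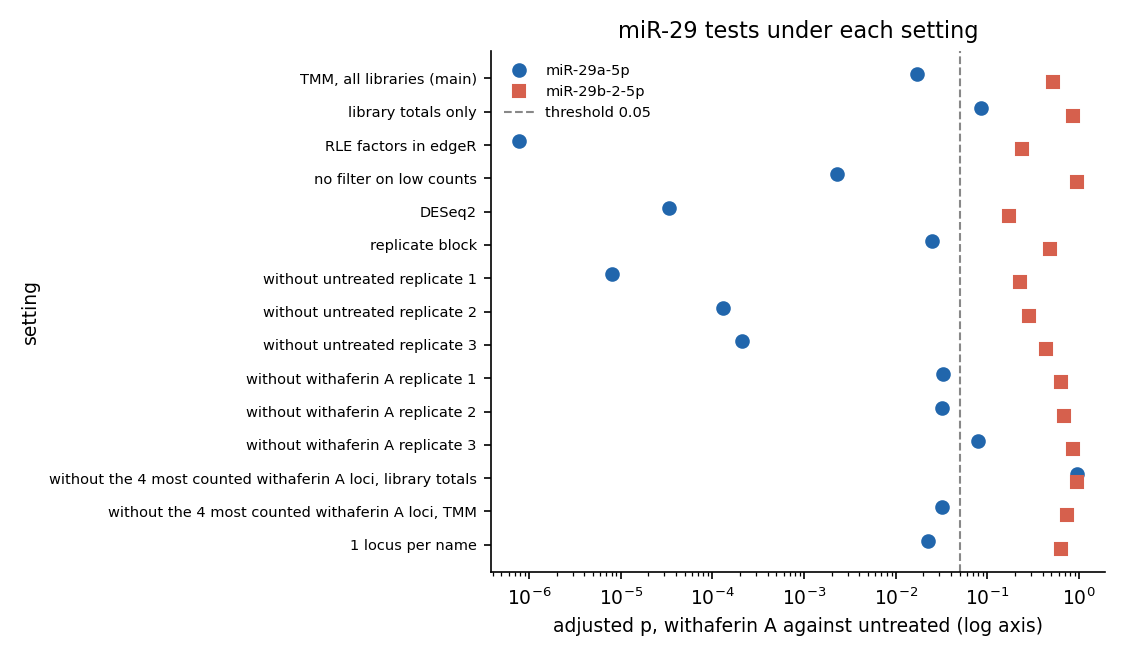
Adjusted p of miR-29a-5p (blue circles) and miR-29b-2-5p (orange squares) on a log axis, for each setting on the vertical axis, with the threshold of 0.05 as a dashed line. miR-29a-5p lies right of the line with library totals only, without withaferin A replicate 3 and without the 4 most counted loci with library totals, and left of it in the other settings. miR-29b-2-5p lies right of it in every setting drawn.

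The loci most like each member were those with the smallest root mean square difference in log2(CPM + 1) over the 6 libraries. For miR-29a-5p these were miR-17-5p of the miR-17/92 cluster (0.174), miR-181a-5p at its copies on chromosomes 1 and 9 (0.219 and 0.220) and miR-30a-5p (0.299). miR-181a-5p, at 5159, 3002 and 5381 CPM in untreated libraries 1 to 3 at the chromosome 1 copy, had the low library 2 of miR-29a-5p, and miR-17-5p (4977, 4347 and 5885 CPM) was more even. All 4 loci had 0 counts after withaferin A and were called lower in edgeR (adjusted p = 0.0127 to 0.0311). The 2 copies of miR-181a-5p differed by at most 0.0382% in untreated libraries, so they do not count as 2 separate measurements. For miR-29b-2-5p the most like loci were miR-342-5p (0.109), miR-19b-1-5p and miR-19b-2-5p (0.111 each, 1 measurement) and miR-374a-5p (0.186). They lay at 412 to 462 CPM, had 0 counts after withaferin A and did not pass in edgeR (adjusted p = 0.342 to 0.495). Likeness over 0 counts carries little weight, since every rare locus shares them. For miR-29a-5p the choice itself favoured loci with 0 counts. miR-191-5p, next to it in level but with 3 counts after withaferin A, differed by 5.22.

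**Figure D4:**
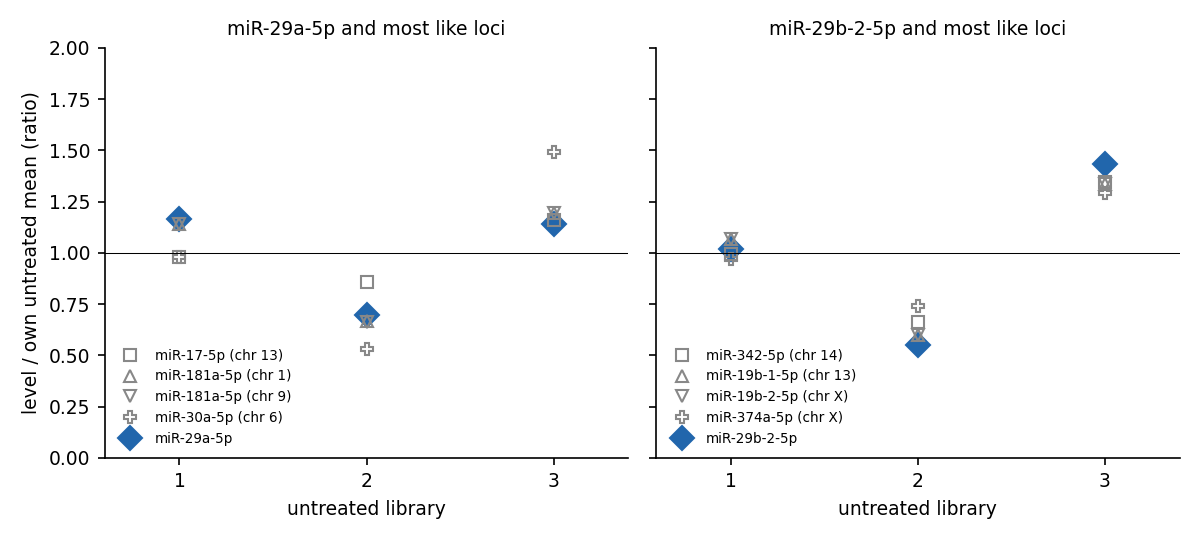
Level in each untreated library divided by the locus's own untreated mean, for miR-29a-5p (left) and miR-29b-2-5p (right), drawn as blue diamonds, with the 4 most like loci of each as grey symbols. Library 2 is the lowest for both members (0.696 and 0.553), and library 3 is the highest for miR-29b-2-5p (1.43).

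Other miRNAs known to act on the targets of miR-29, or to share its regulators, were read from the same fit. Their counts stand beside 16.8% called lower and 0.66% higher over all loci tested, 80.8% lower above the floor, and 261 of the 303 loci tested with 0 counts after withaferin A. DESeq2 called 69 of the 303 lower (22.8%) and 3 higher (0.99%). Of the miRNAs known to repress DNA methyltransferases, 7 of 8 listed had a locus and all 9 of their loci were tested. edgeR called 3 lower and 0 higher, DESeq2 6 and 0, and 9 of 9 had 0 counts after withaferin A. miR-148a-3p and miR-148a-5p, on 1 hairpin (DNMT1 and DNMT3B targets), lay at 33635 and 32903 CPM and were called lower (edgeR adjusted p = 0.00289 each). Their counts were nearly equal in untreated libraries 1 (87778 and 85691), 2 (75505 and 73812) and 3 (70330 and 68966). They may therefore not be 2 separate measurements, and the 3 calls may hold fewer. miR-148b-5p was called lower (adjusted p = 0.0336), although its 1930 CPM lay under the floor and leaves no fold to give. miR-101-5p and miR-101-2-5p (2032 CPM each, equal counts), miR-185-5p (770 CPM), miR-342-5p (442 CPM), miR-152-5p (81.8 CPM) and miR-143-5p (18.5 CPM) did not pass (edgeR adjusted p = 0.0958 to 0.792). The median log2 ratio over the 2 loci above the floor, both of miR-148a and both set to the floor, was −3.72, against −1.01 over all 52 loci above the floor. It follows from the high untreated level of miR-148a alone and is no measure of a deeper fall.

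Of the fibrosis-limiting list, miRNAs known to repress CTGF, collagens or ZEB factors, 10 of 12 had a locus and 8 loci were tested. edgeR called 5 lower and 0 higher and DESeq2 6 and 0, with a median log2 ratio of −1.28 over the 5 above the floor, against −1.01 over all 52. The 5 were miR-30d-5p (16833 CPM, 1 count after withaferin A, edgeR adjusted p = 0.00474), miR-30a-5p, miR-30c-5p, miR-30e-5p and miR-200c-5p, the last 4 with 0 counts (adjusted p = 0.0162 to 0.0332). The ratios of those 4 follow from their untreated levels alone, so the median of −1.28 is no measure of a deeper fall. miR-30b-5p, miR-200b-5p and miR-141-5p, at 2037, 266 and 142 CPM, did not pass. Of the fibrosis-promoting list 3 of 4 had a locus. miR-21-5p was called lower (log2 fold change −4.71, edgeR adjusted p = 0.00188, 29 counts), and its log2 ratio of shares, without TMM scaling, was −3.59. miR-199a-5p, at 13.3 CPM at each of its 2 loci, did not pass. DESeq2 also called 1 of these 3 loci lower and 0 higher.

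Of the other miRNAs known to be repressed by MYC, 14 of 15 had a locus and 15 loci were tested, of which edgeR and DESeq2 each called 7 lower and 1 higher. In edgeR the 7 were let-7f-5p, let-7g-5p, miR-26a-5p at 2 loci, miR-26b-5p and miR-22-5p at 2 loci (edgeR adjusted p = 0.0133 to 0.0336), the last under the floor at 1521 CPM. The 2 loci of miR-22-5p had equal mean levels and those of miR-26a-5p nearly equal ones (24094 and 24046 CPM), so neither pair counts as 2 separate measurements. let-7c-5p was the 1 higher (log2 fold change 2.39, edgeR adjusted p = 0.0311). let-7a-5p at 2 loci, miR-16-5p at 2 loci, miR-34a-5p, miR-15a-5p and miR-146a-5p did not pass (adjusted p = 0.0988 to 0.792). The median log2 ratio over the 8 loci above the floor was −0.95, against −1.01 over all 52. With library totals edgeR called 2 of the 15 lower and 3 higher, against 3.63% lower and 1.98% higher over all 303 loci tested. The 3 higher were let-7a-5p at its 2 loci and let-7c-5p, which were among the 4 most counted loci after withaferin A. In the DNA methyltransferase, fibrosis-limiting and fibrosis-promoting lists 2 of 9, 1 of 8 and 1 of 3 loci were then called lower. None of these loci was called higher.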

How the data were processed

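Per the submitters' processing notes, the authors used Trim Galore, cutadapt and edgeR (no versions) and build GRCh38.p7. The aligner, counting rule and any use of molecular identifiers are not given in the sources used here. The deposited counts are whole numbers per locus, 340 to 2615684 per library. The authors' second table holds a normalized score, the count times 1 factor per library, rounded, and it served for 1 alternative. Columns were assigned to groups by the sample names listed in each record. Shares, exact Clopper-Pearson 95% limits and floors of 3 counts were computed from the counts (Python 3.11.15, pandas 2.3.3, scipy 1.17.1). The test was the quasi-likelihood F test of edgeR 4.0.16 (R 4.3.3) on the 303 loci that filterByExpr kept at a minimum count of 10, with TMM scaling and Benjamini-Hochberg adjustment over all of them. On simulated data (1 set per depth, 4-fold changes up or down, the same spread at each locus) it recovered nearly all changed loci at equal depth. At the depths of these libraries it recovered few and called unchanged loci about as often. The SE is the absolute log2 fold change divided by the square root of F. Alternatives were library totals, RLE factors, no filter, DESeq2 1.42.0, a replicate block, leaving out each library on the same loci and, chosen after seeing the data, leaving out the 4 most counted withaferin A loci (with library totals or with TMM) and 1 locus per name. Sequences were taken from RefSeq, where all 3 hairpins matched by name, and host genes from GENCODE. Named miRNAs were the 3 members, the 4 most like loci of miR-29a-5p and of miR-29b-2-5p, and the tested members of each list. The members and lists were chosen with earlier results of these data known. The chi-square per degree of freedom between libraries of a group was 62.1 to 196 untreated and 1.53 to 2.39 after withaferin A. Each column was used as a replicate because the labels name it as one.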

Additional observations from a re-analysis of the deposited data

How the results depend on the processing

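The count of called loci, 53 of 303 with TMM, was 17 with library totals and 25 with a replicate block in edgeR. It ranged from 24 (without withaferin A replicate 3) to 68 when single libraries were left out, and without the 4 most counted withaferin A loci it was 8 of 299 with library totals and 32 of 299 with TMM. Of the miR-29 loci 1 was called with TMM, against 0 with library totals (1 at an unadjusted p under 0.05 in edgeR), 0 without the 4 most counted loci with library totals (0 at an unadjusted p under 0.05), 1 without them with TMM, 1 in DESeq2, and 0 to 1 when single libraries were left out. miR-29a-5p no longer passed with library totals (edgeR adjusted p = 0.0855) or without the 4 most counted loci and with library totals (edgeR adjusted p = 0.941), and passed without them with TMM (edgeR adjusted p = 0.0324). When single libraries were left out its edgeR adjusted p ran from 7.94e-06 to 0.0788, the highest without withaferin A replicate 3, and the cause was not tested. In 11 of 14 alternatives miR-29a-5p stayed below 0.05, among them DESeq2 (adjusted p = 3.34e-05), RLE factors (7.81e-07 in edgeR) and 1 locus per name (0.0227 in edgeR). miR-29b-2-5p did not pass in any of its 14 alternatives (adjusted p = 0.173 to 0.947). The untreated share of the 3 miR-29 loci (0.646%) ranged from 0.588% to 0.751% and the chromosome 7 to chromosome 1 ratio (13.9) from 12.7 to 15.5 over their 5 alternatives each. Leaving out the 4 most counted loci, under either scaling, and taking 1 locus per name were chosen after seeing the data. Whether library numbers pair the groups could not be told at this depth. The correlation of deviations at equal numbers was −0.0106 to 0.0528 over 303 loci, and 3 of 6 libraries correlated best with their own number. Of those 303 loci 261 had 0 counts after withaferin A, so the correlations could hardly have shown a pairing. With the replicate block miR-29a-5p had an edgeR adjusted p of 0.0249. At this depth 0 of 1188 counts allow up to 2525 CPM, so a fall of a locus below that level could not be bounded.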
